A study of Homo sapiens with 12 samples.

Results

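The subject is the difference between batch 2 and batch 1 in 6 lines of DU145, an established human prostate cancer cell line that grows without androgen. All 12 RNA-seq libraries of the study enter, as 6 pairs of libraries, and a pair is the batch 2 and the batch 1 library of the same line. Of 56832 genes in the deposited table, 17267 averaged 1 TPM or more in either batch and were tested; TPM is transcript abundance scaled to the same total in every library. The RAC1 knockout lines were sgRAC1 clone 1, made with the guide sgRAC1_1, and sgRAC1 clones 2 and 3, made with the guide sgRAC1_2. The RAC1-positive lines were the Parental line and sgNTC clones 1 and 2, made with the non-targeting guide sgNTC_1. Every clone was grown from a single cell after transfection with guide and Cas9, so each knockout line is 1 clone. All lines were kept in RPMI medium with 10% serum, and the labels name no other treatment. The labels number the batches and call the libraries biological replicates, but they do not say whether culture, RNA extraction, library preparation or sequencing differed between batches. Those steps therefore cannot be told apart here.

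HERPUD1, which was called between the batches, belongs to the unfolded protein response. This is the program by which cells answer a load of misfolded protein in the endoplasmic reticulum (ER): sensors in the ER membrane activate transcription factors, which raise chaperones, folding enzymes and the machinery that removes faulty proteins for degradation. HERPUD1 is an ER membrane protein of that removal machinery. HSPA5 is the main ER chaperone. The other group described at length is the mitochondrial tRNAs, of which none was called in the main fits. They are small RNAs encoded in mitochondrial DNA that are cut out of long transcripts of either strand and serve protein synthesis inside the organelle.

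The promoters of HERPUD1 and HSPA5 are shown because HERPUD1 was called in the comparison of batches and HSPA5 was not, although both carry a known ER stress motif. They span 300 bases around the start site in RefSeq on GRCh38.p14. The HERPUD1 window is chr16:56931892-56932191 on the plus strand, with capitals at the ER stress response element II (ATTGG, any base, then CCACG). The HSPA5 window is chr9:125241294-125241593 on the minus strand, with capitals at the ER stress response element (CCAAT, 9 bases of any kind, then CCACG).
HERPUD1: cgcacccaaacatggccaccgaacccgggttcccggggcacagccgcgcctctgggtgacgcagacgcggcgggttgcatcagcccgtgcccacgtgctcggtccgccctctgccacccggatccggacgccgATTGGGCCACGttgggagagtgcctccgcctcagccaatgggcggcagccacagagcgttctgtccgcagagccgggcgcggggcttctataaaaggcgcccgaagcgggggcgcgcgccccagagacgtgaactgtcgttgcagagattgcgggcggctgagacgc
HSPA5: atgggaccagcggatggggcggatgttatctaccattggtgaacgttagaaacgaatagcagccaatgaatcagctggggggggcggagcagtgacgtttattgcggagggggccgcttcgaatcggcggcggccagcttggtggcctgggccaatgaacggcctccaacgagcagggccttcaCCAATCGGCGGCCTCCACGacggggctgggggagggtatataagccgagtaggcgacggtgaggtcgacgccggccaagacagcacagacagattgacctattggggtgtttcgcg

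Both motifs were searched on both strands, and the letters of either may overlap the other. Element II stood in 0.0541% of 35116 promoters, and in those of 3 of the 23 unfolded protein response genes found in the promoter table: HERPUD1, HYOU1 and SDF2L1. The longer element stood in 0.0769% of promoters and in 7 of the 23: CALR, CANX, CRELD2, HSP90B1, HSPA5, PDIA6 and XBP1. A match describes letters only.

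The mitochondrial tRNAs MT-TA, MT-TN, MT-TC and MT-TY are shown because their batch difference had opposite signs in the genotypes. They are given as in GENCODE release 29 on GRCh38, all on the minus strand, with the anticodon in capitals. MT-TA (alanine) lies at chrM:5587-5655, MT-TN (asparagine) at chrM:5657-5729, MT-TC (cysteine) at chrM:5761-5826 and MT-TY (tyrosine) at chrM:5826-5891, so they are neighbours.
MT-TA: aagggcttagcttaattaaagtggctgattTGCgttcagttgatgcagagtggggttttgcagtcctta
MT-TN: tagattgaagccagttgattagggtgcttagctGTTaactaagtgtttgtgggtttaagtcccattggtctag
MT-TC: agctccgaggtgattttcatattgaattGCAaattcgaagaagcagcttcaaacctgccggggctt
MT-TY: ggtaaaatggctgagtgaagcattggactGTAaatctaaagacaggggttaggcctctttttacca

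RAC1, the targeted small GTPase of actin protrusion, separated the genotypes in each batch. Knockout libraries held 36.5, 54.2 and 40.3 TPM in batch 2 and 47.5, 59.2 and 39.6 TPM in batch 1 (sgRAC1 clones 1, 2 and 3). RAC1-positive libraries held 170, 149 and 152 TPM in batch 2 and 171, 188 and 202 TPM in batch 1 (Parental, sgNTC clones 1 and 2). Every knockout library lay below every RAC1-positive one, and RAC1 was above 0 in all. The paired batch difference, in log2(TPM + 1) here and throughout, was -0.20 ± 0.09 over the 6 lines (SE; limma adjusted p = 0.611).

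TPM sums to 1000000 in every library, so sequencing depth is unknown. The sgNTC clone 2 library of batch 1 stood apart, with 13608 genes listed above 0, where every other library had at least 20470, and results are given without its line where that matters. Of the prostate and simple epithelium markers 6 of 7 had a mean of at least 1 TPM and summed to 522 to 866 TPM in batch 2 and 325 to 750 TPM in batch 1, with KRT5 at 0 throughout. The luminal prostate genes KLK3 and TMPRSS2 were at 0 in all libraries. Fibroblast, endothelial and neuroendocrine marker sums stayed at or below 0.494 TPM in batch 2 and 0.981 TPM in batch 1. Blood markers summed to at most 2.38 TPM in batch 2 and 4.35 TPM in batch 1. Adipocyte markers summed to at most 0.870 TPM in batch 2 and 11 TPM in batch 1. In bulk RNA, fewer cells of a type and less RNA per cell cannot be told apart.

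Line accounted for 46.5% of the summed squares of log2(TPM + 1) over genes, batch for 10.9% and the remainder for 42.6%, on 5, 1 and 5 degrees of freedom. The batch difference was little shared between lines as a profile. Across 17267 genes, which are not independent, the correlation of 2 lines' differences ran from -0.12 to 0.30 over 15 pairs of lines, with a median of 0.04. The highest was between the 2 sgNTC clones, and the lowest between Parental and sgNTC clone 1.

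Across all 6 lines, HERPUD1 and MINPP1 rose in batch 2 and no gene was called lower. MINPP1 encodes an inositol polyphosphate phosphatase that resides in the ER. In a paired limma test with Benjamini-Hochberg adjustment at 0.05 these were 2 of 17267 genes higher (0.0116%) and 0 lower (0.00%), with 1153 genes higher (6.68%) and 289 lower (1.67%) at unadjusted p under 0.05. At an adjusted p under 0.1, 26 genes were higher and 0 lower. Counted by direction only, 773 genes (4.48%) were higher and 212 (1.23%) lower in 6 of 6 pairs, and without sgNTC clone 2 the counts in 5 of 5 pairs were 1088 (6.30%) and 360 (2.08%). Among the 9814 genes at 5 TPM or more, 564 (5.75%) were higher and 145 (1.48%) lower in 6 of 6 pairs. All 6 batch 2 libraries lay above all 6 batch 1 libraries in 45 genes (0.261%) and below them in 20 genes (0.116%).

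HERPUD1 (chr16:56932048-56944863, plus strand) held 29.1, 28.2 and 38.3 TPM in the knockout libraries of batch 2, against 11.1, 12.3 and 20.8 TPM in those of batch 1. In the RAC1-positive lines it held 91.4, 35.9 and 30.2 TPM in batch 2, against 36.1, 14.3 and 11.9 TPM in batch 1 (Parental, sgNTC clones 1 and 2). Every line was higher in batch 2, yet the batches overlapped, because Parental batch 1 lay above several batch 2 libraries. The mean was 42.2 ± 24.5 TPM in batch 2 and 17.7 ± 9.65 TPM in batch 1 (SD, n = 6 each), and the paired difference was 1.19 ± 0.10 (SE; limma adjusted p = 0.0352).

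MINPP1 (chr10:87504875-87553460, plus strand) held 51.7, 43.7 and 60.5 TPM in the knockout libraries of batch 2, against 22.7, 21.5 and 23.8 TPM in those of batch 1. In the RAC1-positive lines it held 130.4, 70.1 and 50.7 TPM in batch 2, against 73.5, 31.9 and 25.4 TPM in batch 1. All 6 pairs were higher in batch 2, and the Parental line was again the highest of each batch. The paired difference was 1.06 ± 0.09 (SE; limma adjusted p = 0.0352). Both calls were lost when any line was left out (adjusted p 0.0817 to 0.332 for HERPUD1 and 0.0542 to 0.332 for MINPP1), while their differences stayed between 1.17 and 1.26 for HERPUD1 and between 1.01 and 1.11 for MINPP1. Both calls were also lost without the variance trend, with median-of-ratios scaling, with no replicate block and with the line as a random block (adjusted p 0.0560 to 0.546). With genes at 5 TPM or more only, 22 genes were called, all higher, and HERPUD1 and MINPP1 were among them.

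**Figure D1:**
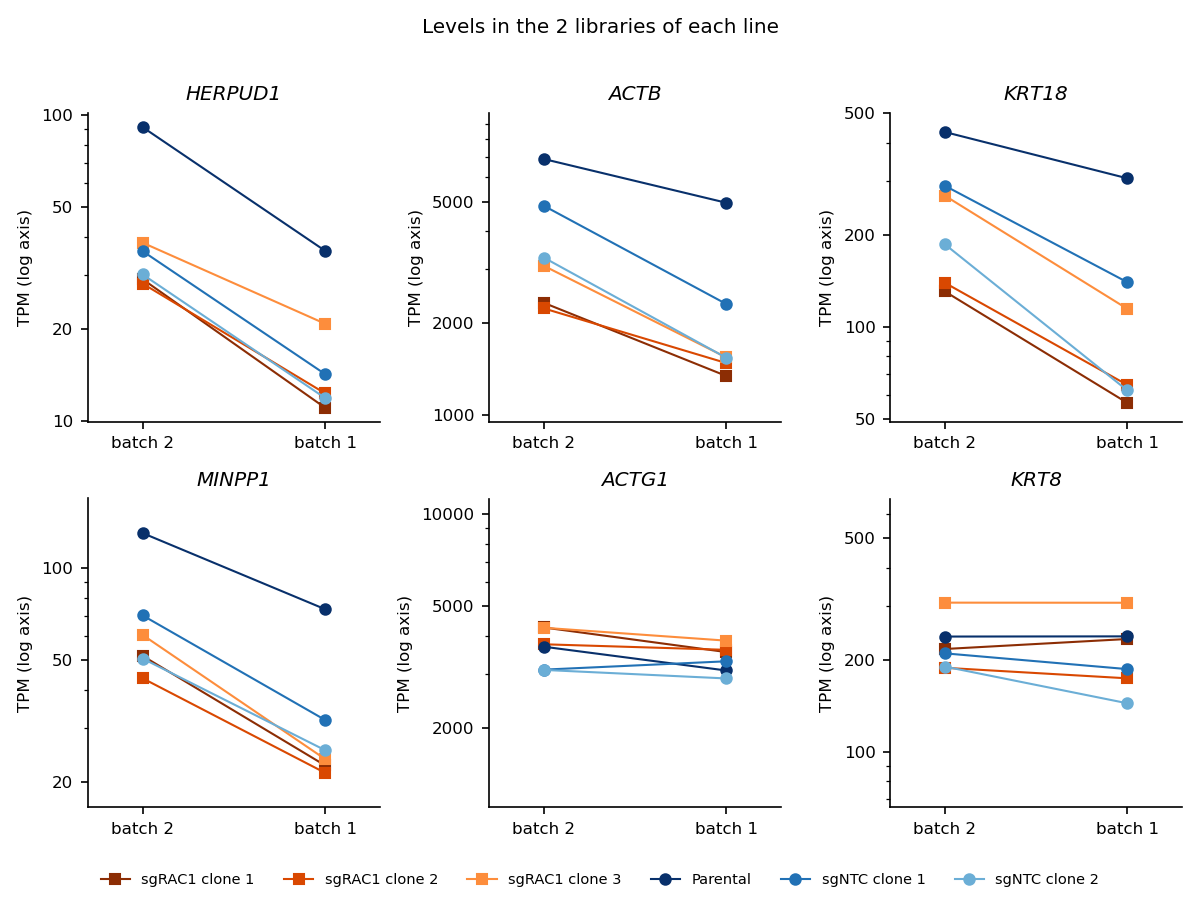
TPM (log axis) of 6 genes in the batch 2 and batch 1 libraries of each line, with 1 line of the plot joining the libraries of a cell line; squares are knockout clones and circles RAC1-positive lines. HERPUD1, MINPP1, ACTB and KRT18 are higher in batch 2 in all 6 lines, while ACTG1 and KRT8 span 1.47-fold and 2.13-fold over the 12 libraries.

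The next genes by p missed the threshold with an adjusted p of 0.0752. ACTB, which encodes cytoplasmic beta-actin, held 2333, 2237 and 3083 TPM in the knockout libraries of batch 2, against 1346, 1483 and 1548 TPM in those of batch 1. In the RAC1-positive lines ACTB held 6892, 4846 and 3280.2 TPM in batch 2, against 4958, 2314 and 1543 TPM in batch 1. Each line was higher in batch 2 (difference 0.83 ± 0.10, SE), and ACTB spanned 5.12-fold over the 12 libraries. The gamma-actin gene ACTG1, named after its values were seen, spanned 1.47-fold, with a difference of 0.12 ± 0.06 (SE; limma adjusted p = 0.648). A like contrast held for the keratins of simple epithelium, partners in 1 filament: KRT18 spanned 7.69-fold with a difference of 1.10 ± 0.13 (SE), and KRT8, also named afterwards, 2.13-fold with 0.10 ± 0.08 (SE; limma adjusted p = 0.749). For ACTB, ACTG1, KRT18 and KRT8 alike, the sources used here do not say how reads shared with pseudogenes were assigned.

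Other genes among the 12 highest-ranked were NDUFAB1 (0.93 ± 0.11), the mitochondrial acyl carrier protein, ISCA2 (0.96 ± 0.11), an iron-sulfur cluster assembly factor, and GPX1 (1.03 ± 0.13), a glutathione peroxidase, all as log2 differences with SE. RRP1 (1.06 ± 0.13) acts in ribosome assembly, SLC3A2 (0.92 ± 0.12) is the heavy chain of amino acid transporters, BAD (0.97 ± 0.13) promotes apoptosis and CNN3 (0.53 ± 0.07) is an actin-binding calponin. RP1-52D1.1, a gene whose symbol found no match in GENCODE 29, had 3.96 to 5.98 TPM in batch 2. It was listed at 0 in 5 libraries of batch 1, with 2.70 TPM in Parental. For all 12 genes the highest library was Parental batch 2, and for 11 the lowest was a knockout library of batch 1. For 8 of the 12 Parental batch 1 lay above every knockout library of batch 2, with a median of 0.709 for the mean of the knockout batch 2 libraries over Parental batch 1.

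Among genes lower in batch 2 in all 6 pairs, none passed. NPTN, a cell adhesion glycoprotein of the immunoglobulin family, held 28.5, 24.2 and 25.0 TPM in the knockout libraries of batch 2, against 41.9, 33.4 and 38.6 TPM in those of batch 1. RAC1-positive lines held 16.8, 16.2 and 20.2 TPM of NPTN in batch 2, against 21.9, 24.04 and 29.2 TPM in batch 1. The difference was -0.50 ± 0.09 (SE; limma adjusted p = 0.132). TUFT1 (-0.40 ± 0.08), GSR (-0.51 ± 0.11), which encodes glutathione reductase, the death receptor decoy TNFRSF10D (-0.62 ± 0.14) and LATS2 (-0.49 ± 0.12), a kinase of the Hippo pathway, had adjusted p-values of 0.172 to 0.260. The mitochondrial leucine tRNA MT-TL1 (-0.57 ± 0.11) was also lower in 6 of 6 pairs, with an adjusted p of 0.179.

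Of 27 genes listed for the unfolded protein response, 25 were tested, HERPUD1 was called, and 6 (24%, against 4.48% of all genes tested) were higher in 6 of 6 pairs: HERPUD1, PDIA4, DNAJB11, CALR, P4HB and CRELD1. None was lower in all pairs. The median difference was 0.16, against 0.04 over all genes. The folding enzymes PDIA4 (0.63 ± 0.09, SE; adjusted p = 0.0752) and P4HB (0.42 ± 0.09; adjusted p = 0.211) form disulfide bonds, DNAJB11 (0.84 ± 0.13; adjusted p = 0.108) is a co-chaperone of HSPA5, and CALR (0.54 ± 0.11; adjusted p = 0.190) is a lectin chaperone. DNAJB11 held 21.1, 23.8 and 28.9 TPM in the knockout libraries of batch 2, against 12.7, 11.2 and 11.6 TPM in those of batch 1. Its RAC1-positive values were 63.0, 32.1 and 25.5 TPM in batch 2, against 31.1, 19.1 and 19.6 TPM in batch 1.

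Other members of the list did not pass, the main chaperone among them. HSPA5 held 1773, 1515 and 1605 TPM in the knockout libraries of batch 2, against 1384, 1359 and 1120.2 TPM in those of batch 1. In RAC1-positive lines HSPA5 held 1900, 1486 and 1707 TPM in batch 2, against 1734, 1759 and 1803 TPM in batch 1. Its difference was 0.14 ± 0.10 over 6 lines (SE; limma adjusted p = 0.722), at 0.34 in knockout and -0.06 in RAC1-positive lines. HSP90B1 (0.13 ± 0.13), the transcription factors XBP1 (0.15 ± 0.13) and ATF6 (0.03 ± 0.11), and the membrane chaperone CANX (-0.09 ± 0.16) also did not pass.

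**Figure D2:**
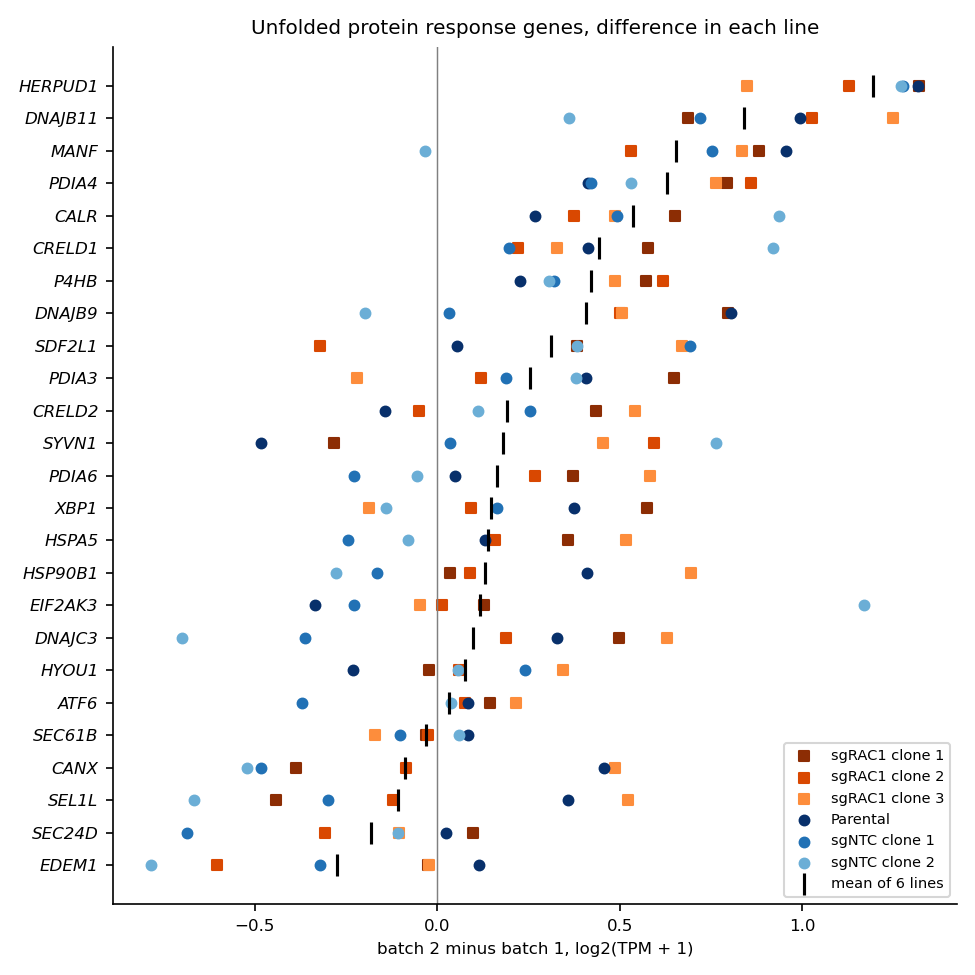
Batch 2 minus batch 1 difference of log2(TPM + 1) for 25 unfolded protein response genes in each of 6 lines (squares knockout, circles RAC1-positive), with a black tick at the mean. HERPUD1 and DNAJB11 have all points right of 0, while HSPA5, HSP90B1 and CANX have points on both sides.

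In the heat shock response list, whose members are cytosolic chaperones and their partners, 7 of 22 genes tested (31.8%, against 4.48% of all genes) were higher in 6 of 6 pairs and none lower, and 0 were called. These were HSPA1A, HSPA1B, HSPH1, DNAJB1, HSPA4, STIP1 and AHSA1. HSPA4 averaged 125 ± 33.7 TPM in batch 2 and 72.0 ± 34.8 TPM in batch 1 (SD, n = 6 each), a difference of 0.89 ± 0.16 (SE; limma adjusted p = 0.161). HSPA1A (0.72 ± 0.15; adjusted p = 0.197) and HSPA1B are near-identical genes, so their reads may be shared. The list's median was 0.14.

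Nuclear genes of oxidative phosphorylation had a median of 0.01 over 72 members, with 8 (11.1%, against 4.48% of all genes) higher in 6 of 6 pairs, none lower and 0 called. They were NDUFAB1, NDUFB10, NDUFS3 and NDUFS6 of complex I, UQCRC1, UQCRFS1 and CYC1 of complex III, and ATP5D of the ATP synthase. NDUFS3 averaged 34.7 ± 7.68 TPM in batch 2 and 19 ± 12.4 TPM in batch 1 (SD, n = 6 each; difference 1.00 ± 0.19, SE; limma adjusted p = 0.165). In the mitosis list CDC20, an activator of the anaphase-promoting complex, averaged 404 ± 84.5 TPM in batch 2 and 222 ± 130.5 TPM in batch 1 (difference 1.02 ± 0.19, SE; limma adjusted p = 0.165), and PLK1 and UBE2C were also higher in all pairs. That is 3 of 53 members (5.66%), near the 4.48% of all genes tested. Among cholesterol synthesis genes, SQLE (0.60 ± 0.08, SE; adjusted p = 0.0752) and MVD were higher in 6 of 6 pairs.

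Targets of YAP and TAZ, the transcriptional co-activators held back by the Hippo pathway, had the lowest list median, -0.15 over 25 members. Of these 3 (12%, against 1.23% of all genes) were lower in 6 of 6 pairs, none higher, and 0 were called. CTGF, a secreted matricellular protein, held 12.4, 11.4 and 6.56 TPM in the knockout libraries of batch 2, against 16.8, 14.2 and 9.18 TPM in those of batch 1. CTGF in the RAC1-positive lines was 20.2, 14.5 and 13.8 TPM in batch 2, against 25.1, 38.6 and 24.05 TPM in batch 1 (difference -0.59 ± 0.16, SE; limma adjusted p = 0.342). AMOTL2 (-0.51 ± 0.13; adjusted p = 0.289) and LATS2 were the others, and CYR61 was lower in 5 of 6 pairs (-0.27 ± 0.10; adjusted p = 0.526). Targets of SRF and MRTF, which respond to actin assembly, had a median of 0.12, with ACTB, CNN2, FLNC and WDR1 (4 of 30, 13.3%, against 4.48% of all genes) higher in 6 of 6 pairs. With differences corrected for GC content and length the median was -0.01, over the 26 members in that fit, against -0.03 over all genes in that fit.

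**Figure D3:**
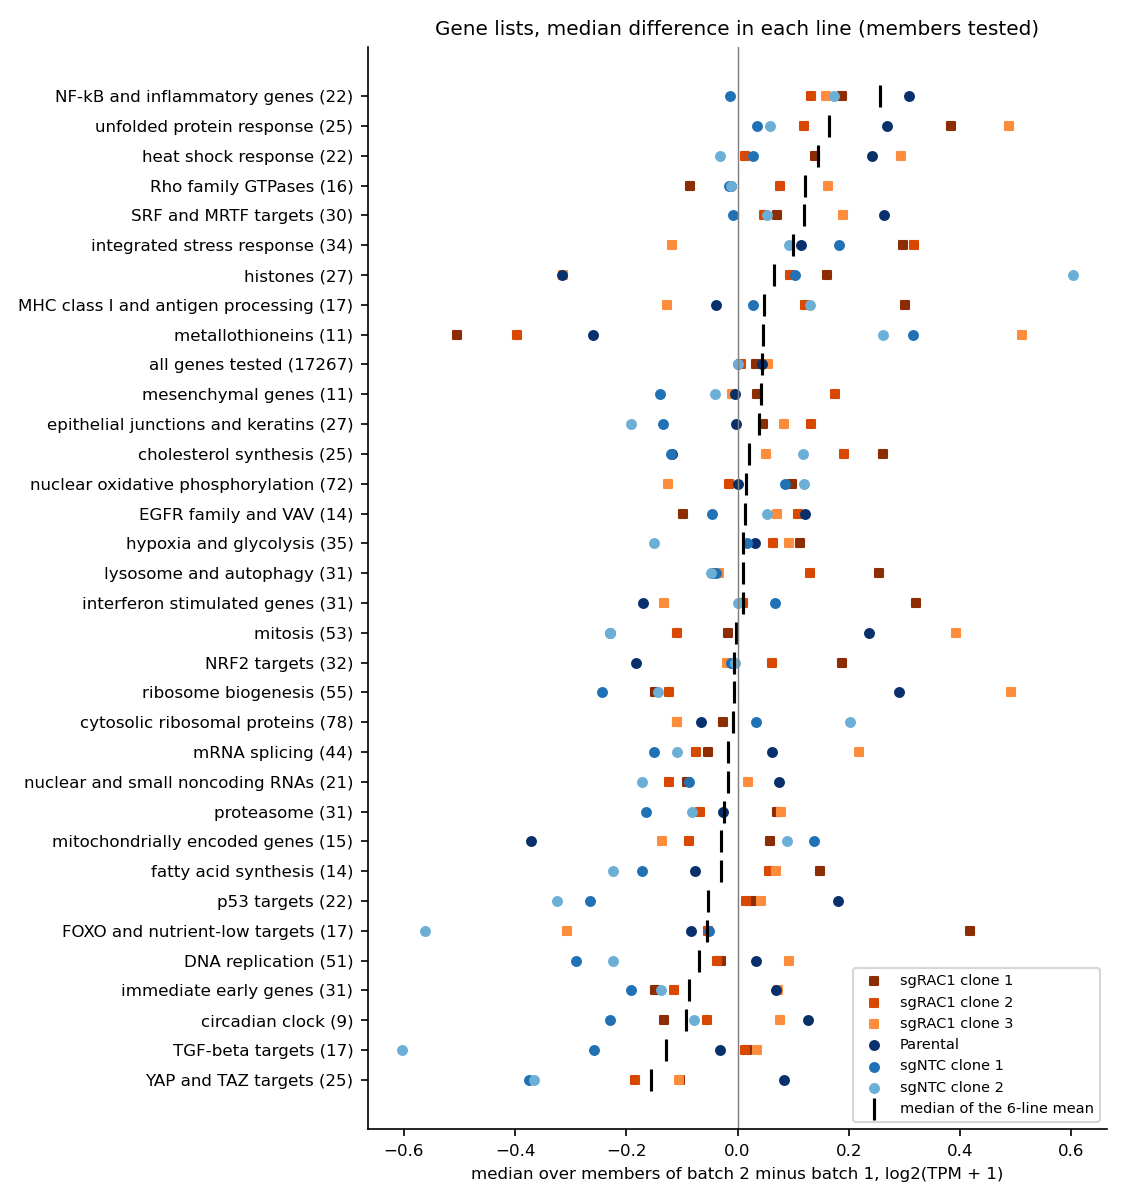
Median batch 2 minus batch 1 difference of log2(TPM + 1) over the members of each gene list (members tested in brackets), in each line and for the mean of 6 lines (black tick). The unfolded protein response lies above 0 in all 6 lines, and the YAP and TAZ list below 0 in all lines but Parental.

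No other list had a called member, and 16 of the 33 lists had a median at or below 0. The NF-kB list had the highest median, 0.26 over 22 members, with NFKBIA, ICAM1 and CXCL3 (13.6%, against 4.48% of all genes) higher in 6 of 6 pairs. Its GC-corrected median was -0.01, over the 14 members in that fit, against -0.03 over all genes in that fit. The members thus differ between these 2 medians, and the part of each change was not tested. Of 31 immediate early genes tested, IER5, KLF10, ZFP36 and AREG (12.9%, against 4.48% of all genes) were higher and FOS, SPRY2 and KLF2 (9.68%, against 1.23%) lower in all pairs. Cytosolic ribosomal protein genes had a median of -0.01 over 78 members, with RPL10, RPL15 and RPLP0 (3.85%, against 1.23% of all genes) lower in all pairs. In 6 of 6 pairs, 2 of 31 interferon genes were higher and 2 lower (6.45% each, against 4.48% and 1.23% of all genes). The NRF2 list had 1 of 32 members higher and 1 lower (3.1% each). The p53 list had 1 of 22 higher (4.55%) and none lower, and the TGF-beta list 1 of 17 lower (5.88%) and none higher.

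Ribosome biogenesis medians differed in sign between lines. The ribosome biogenesis median was -0.15, -0.12 and 0.49 in sgRAC1 clones 1, 2 and 3, and 0.29, -0.24 and -0.14 in Parental and sgNTC clones 1 and 2. The same lines stood apart in how their batch differences followed sequence composition. Over 7957 genes at 5 TPM or more with a transcript in GENCODE 29 (81.1% of 9814), Spearman's rho between a line's batch difference and transcript GC content was -0.27 in sgRAC1 clone 3 and -0.31 in Parental, and 0.25 to 0.51 in the other 4 lines. For transcript length the signs were opposite, 0.22 and 0.21 against -0.35 to -0.15. These are correlations across genes, which share libraries. The 52 ribosome biogenesis members in that set had a median GC content of 47.52% and a median length of 3001 bases. Over all genes of the set the medians were 45.35% and 3113 bases. The part of composition in the results was not tested beyond the corrected fit, in which 58 of 7957 genes were called, 56 higher and 2 lower, against 54 of the same genes without the correction (53 higher, 1 lower). Of these 36 were called in both fits, and HERPUD1 and MINPP1 were called in each.

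**Figure D4:**
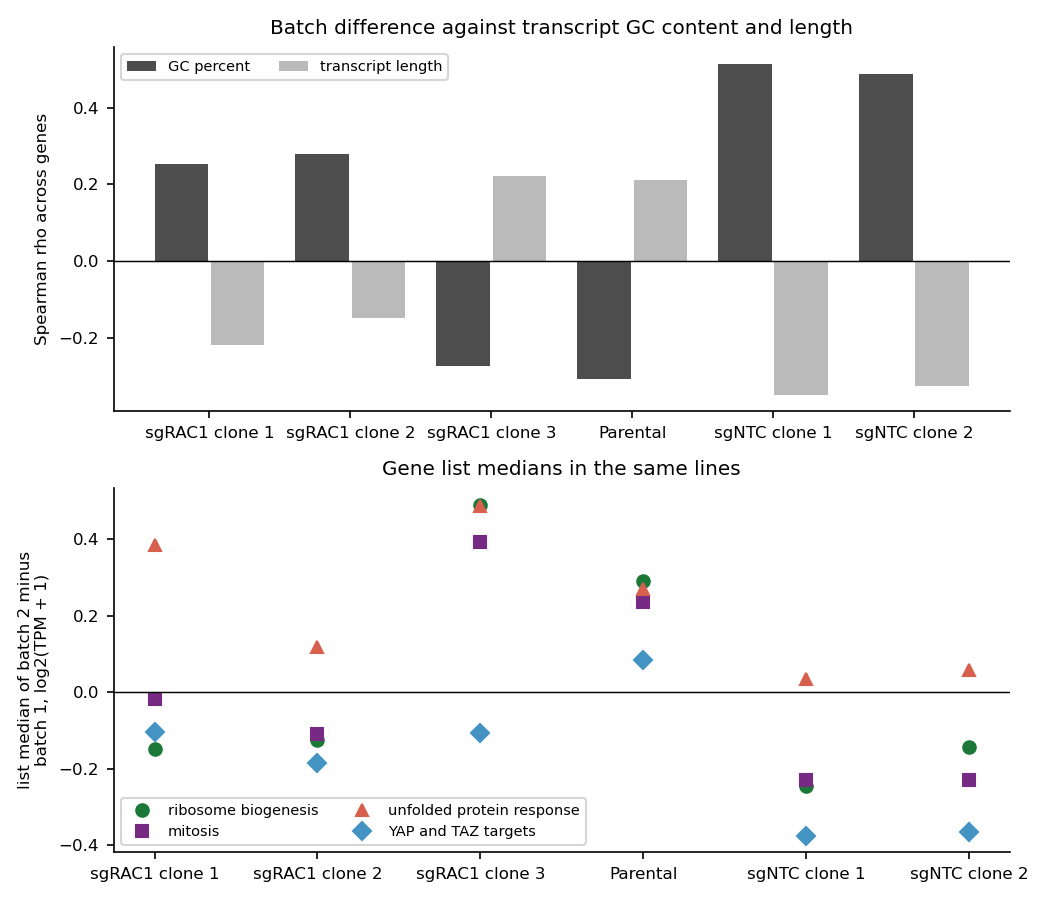
Top, Spearman's rho across 7957 genes of each line's batch difference with transcript GC content (dark bars) and length (light bars). Bottom, medians of 4 gene lists in the same lines; sgRAC1 clone 3 and Parental have negative rho with GC and positive ribosome biogenesis and mitosis medians.

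Within the genotypes no gene passed. In the knockout lines limma called 0 genes higher (0.00%) and 0 lower (0.00%), with 639 higher (3.70%) and 172 lower (0.996%) at unadjusted p under 0.05 and a lowest adjusted p of 0.132. By direction, 3083 genes (17.9%) were higher and 1470 (8.51%) lower in 3 of 3 knockout pairs. In the RAC1-positive lines it called 0 higher (0.00%) and 0 lower (0.00%), with 1136 higher (6.58%) and 469 lower (2.72%) at unadjusted p under 0.05 and a lowest adjusted p of 0.344. In 3 of 3 RAC1-positive pairs 2653 genes (15.4%) were higher and 1705 (9.87%) lower. KLHL7, an adaptor of a ubiquitin ligase, headed the knockout lines, with 18.7, 25.6 and 27.3 TPM in batch 2, against 5.42, 8.59 and 10.5 TPM in batch 1 (difference 1.46 ± 0.15, SE; limma adjusted p = 0.132). Its RAC1-positive values were 36.1, 26.5 and 29.4 TPM in batch 2, against 25.1, 18.7 and 17.4 TPM in batch 1, higher in batch 2 as well. ARL6IP6 (1.19 ± 0.12), PDIA4 (0.81 ± 0.09), NDUFAB1 (1.12 ± 0.12) and MINPP1 (1.15 ± 0.13) followed, each with an adjusted p of 0.132. In the RAC1-positive lines HERPUD1 (1.29 ± 0.14) and AURKAIP1 (1.25 ± 0.14), a mitochondrial ribosome protein, had an adjusted p of 0.344.

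The batch difference itself was compared between genotypes, as the knockout minus the RAC1-positive mean difference. limma called 0 genes higher (0.00%) and 0 lower (0.00%), with 340 higher (1.97%) and 407 lower (2.36%) at unadjusted p under 0.05. In 863 genes (5.0%) the 3 knockout differences all lay above the 3 RAC1-positive ones, and in 740 (4.29%) all below. In 232 genes (1.34%) all knockout pairs were higher and all RAC1-positive pairs lower in batch 2, and in 194 (1.12%) the reverse held.

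Mitochondrial tRNAs headed that comparison. MT-TN held 1990.2, 1905 and 1655 TPM in the knockout libraries of batch 2, against 537, 604 and 454 TPM in those of batch 1. In the RAC1-positive lines MT-TN held 805, 475 and 922 TPM in batch 2, against 2247, 1864 and 1611 TPM in batch 1. The levels did not overlap between batches in either genotype, and the directions were opposite. The difference was 1.80 ± 0.20 in knockout and -1.42 ± 0.20 in RAC1-positive lines (SE), and the difference between them, 3.22 ± 0.28 (SE), had the lowest adjusted p of the comparison without passing (limma adjusted p = 0.204).

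MT-TC, the most abundant of the 4, held 5671, 4932 and 5309 TPM in the knockout libraries of batch 2, against 1534, 2143 and 1273 TPM in those of batch 1. Its RAC1-positive levels were 2691, 1138 and 2300.4 TPM in batch 2, against 6646, 5866 and 4881 TPM in batch 1 (knockout minus RAC1-positive difference 3.30 ± 0.38, SE; limma adjusted p = 0.511). MT-TA differed by 3.34 ± 0.46 (SE; limma adjusted p = 0.553) and MT-TY by 2.53 ± 0.40 (SE; limma adjusted p = 0.635) in the same sense. MT-TY in sgNTC clone 2 was nearly level, at 459 TPM in batch 2 and 465 TPM in batch 1.

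Genes on the minus strand held most of this pattern, and the mitochondrial genes were grouped after their values were seen. Of 8 tRNAs on the minus strand, 6 had all knockout differences above all RAC1-positive ones (MT-TA, MT-TN, MT-TC, MT-TY, MT-TQ and MT-TE). On the plus strand 2 of 14 did (MT-TI and MT-TM), and 5.0% of all genes tested did. Higher in all knockout and lower in all RAC1-positive pairs were 5 of the 8 and 2 of the 14, against 1.34% of all genes. MT-TE was higher in sgNTC clone 2 as well. Of 15 mitochondrial protein and rRNA genes only MT-ND6, the 1 among them on the minus strand, had all knockout differences above all RAC1-positive ones. MT-ND6 was higher in batch 2 in sgNTC clones 1 and 2 as well. The minus-strand proline tRNA MT-TP was an exception, at 2193, 2152 and 1945 TPM in knockout batch 2 and 2596, 2206 and 2742 TPM in knockout batch 1, with a knockout minus RAC1-positive difference of -0.20 ± 0.20 (SE; limma adjusted p = 0.902). MT-TS1, also on the minus strand, was another, with a difference of -2.11 ± 1.77 (SE; limma adjusted p = 0.902). It was listed at 0 in sgNTC clone 2 of batch 1. MT-ND2, on the plus strand beside the cluster, had -0.15 ± 0.09 in knockout and -0.20 ± 0.09 in RAC1-positive lines (SE). All mitochondrial tRNAs together took 1.22% to 1.34% of TPM in knockout batch 2, against 0.65% to 0.74% in knockout batch 1. In RAC1-positive libraries they took 0.61% to 0.77% in batch 2, against 1.23% to 1.47% in batch 1. The sources used here do not give the strand setting of the counting, so reads of these tRNAs and of antisense transcripts cannot be told apart, and tRNAs this short are poorly captured by standard RNA-seq, so their TPM may not track their abundance.

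**Figure D5:**
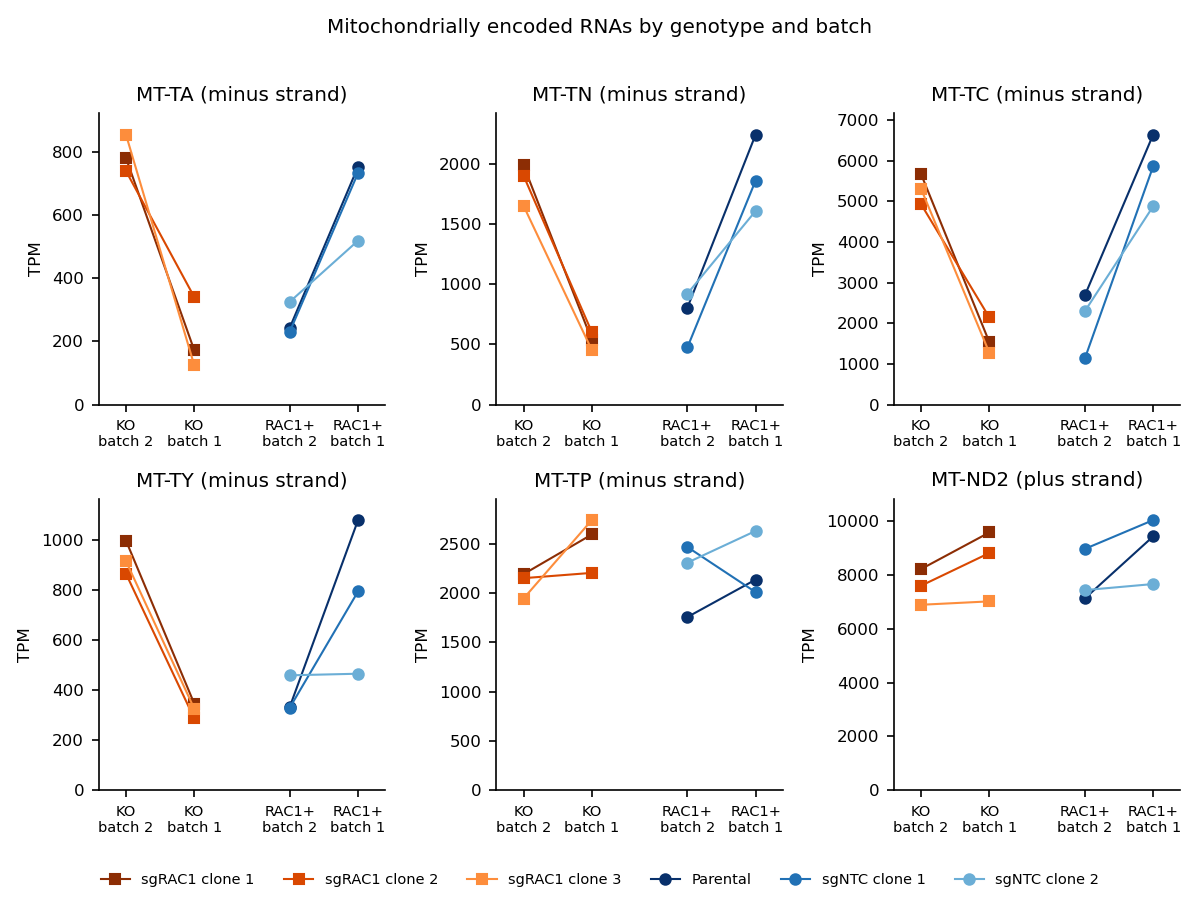
TPM of 6 mitochondrially encoded genes in the batch 2 and batch 1 libraries of knockout clones (KO, squares) and RAC1-positive lines (RAC1+, circles), with lines joining the libraries of a cell line. MT-TA, MT-TN and MT-TC are higher in batch 2 in knockout clones and lower in RAC1-positive lines, while MT-TP and MT-ND2 show no such crossing.

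Some nuclear genes crossed in the same sense without passing. CASP8, the initiator caspase of death receptor signalling, held 22.8, 24.3 and 22.6 TPM in the knockout libraries of batch 2, against 13.7, 16.4 and 10.8 TPM in those of batch 1. The RAC1-positive values of CASP8 were 11.4, 10.0 and 10.7 TPM in batch 2, against 20.6, 22.8 and 21.9 TPM in batch 1 (knockout minus RAC1-positive difference 1.70 ± 0.23, SE; limma adjusted p = 0.553). RAB2B, a Golgi GTPase, differed by 0.98 ± 0.16, with 72.6, 70.6 and 68.5 TPM in knockout batch 2, against 59.9, 57.9 and 60.0 TPM in knockout batch 1. Its RAC1-positive levels were 39.7, 38.6 and 38.9 TPM in batch 2, against 63.1, 61.5 and 72.2 TPM in batch 1. CEBPZOS (1.45 ± 0.20) and STRIP2 (1.66 ± 0.24) had adjusted p-values of 0.553 for the difference between genotypes.

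Library measures were compared by a two-sided exact sign-flip test over 6 pairs, which can give no p below 0.0312. None of 6 passed at an adjusted 0.05. Genes at 1 TPM or more averaged 16146 ± 218 in batch 2 and 15445 ± 1301 in batch 1 (SD, n = 6 each; exact p = 0.25, adjusted 0.875, higher in 4 of 6 pairs). Mitochondrially encoded genes took 12% ± 1.1 of TPM in batch 2 and 12.4% ± 0.592 in batch 1 (SD, n = 6 each; exact p = 0.719, adjusted 0.938). Ribosomal protein genes took 5.03% ± 0.352 in batch 2 and 5.08% ± 0.276 in batch 1 (SD, n = 6 each; exact p = 0.781, adjusted 0.938).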

How the data were processed

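Per the labels' protocols, the 12 DU145 libraries were made by SMARTScribe reverse transcription, amplification and tagmentation. STAR 2.6.1d, bcl2fastq, DESeq2 and GRCh38 appear in the submitters' processing notes. On the counter, strand setting and annotation nothing is given in the sources used here. What the authors deposited is 1 table with a TPM value per gene and library. TPM keeps no depth, so depth and counting error are unknown. The table also holds the authors' comparison of genotypes, with a deposited mean signal of normalized counts, log2 fold change, Wald score and p-value, which were not used here.

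Each line's batch 2 minus batch 1 difference of log2(TPM + 1) was tested in limma 3.58.1 (R 4.3.3), with a variance trend on mean expression (adjustment by Benjamini-Hochberg at 0.05), over genes averaging 1 TPM or more in either batch. The pseudocount understates differences of low genes. A fit with a mean per genotype gave the knockout, RAC1-positive and genotype contrasts. The pairing comes from the cell line in the titles. Deviations of the 2 libraries of a line from their batch means correlated at -0.05 to 0.16. No 2 of 66 library pairs held identical values. The p-values measure the spread between lines, of which 5 are clones of the same cell line. Scripts were tested on simulated data. Some single-gene results are not reported here.

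Named genes were RAC1, up to 12 per direction by smallest p with all 6 pairs in that direction and 5 TPM in the higher batch, up to 6 per genotype contrast and direction, and from each list up to 4 called members, or else the 2 of smallest p. For the difference between genotypes, named genes also had all knockout differences above, or all below, all RAC1-positive ones. Further members and a few others were named after their values were seen. The comparison, the 33 gene lists and the 7 marker sets were chosen with earlier results of these data known. Alternatives covered the pairing, scaling, level filter, pseudocount (0.1 and 5), variance trend, each line left out, and, added after seeing the data, a GC and length correction. Python 3.11.15 with pandas 2.3.3 and scipy 1.17.1 was used, and positions are from GENCODE 29 by symbol.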

Additional observations from a re-analysis of the deposited data

Results flagged for a closer look

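Values that stood apart from the other 5 of their group were found in 9 of 163 groups of 6 checked, and chance gives about 1 in 20. The groups share libraries, so they are not independent of each other. In batch 2 sgRAC1 clone 1 had the largest share of TPM in histone genes, 0.431%. In batch 1 sgNTC clone 2 had the fewest genes listed above 0 (13608) and at 1 TPM or more (12843). The same line stood apart in its batch difference of log2(TPM + 1) for DDIT4, a stress-induced inhibitor of mTORC1 (4.79, with 26.6 TPM in batch 2 and listed at 0 in batch 1), for GSR (-1.02), for the insulin receptor substrate IRS2 (-1.58) and for the median of the hypoxia and glycolysis list (-0.15). The difference of RP1-52D1.1 stood apart in Parental (0.91) and that of the adhesion molecule ICAM1 in sgRAC1 clone 2 (0.74).

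Of the genes chosen for description, 14 had every knockout pair on one side of 0 between batches and every RAC1-positive pair on the other. Over all genes tested, 232 (1.34%) and 194 (1.12%) crossed in either sense. Some of the 14 were picked because all knockout differences lay on one side of the RAC1-positive ones, and some after their values were seen. Their crossing therefore follows in part from the choice. The knockout minus RAC1-positive differences were 3.22 for MT-TN, 3.30 for MT-TC, 3.34 for MT-TA, 2.53 for MT-TY, 2.23 for MT-TQ, 1.70 for CASP8, 1.45 for CEBPZOS, 1.66 for STRIP2, 0.98 for RAB2B, 1.05 for HMGCS1 and 0.64 for CDC42. They were -3.49 for ISCA1P4, -3.71 for RP11-379F4.6 and -3.64 for RF00139. None passed limma's test of the difference (adjusted p 0.204 to 0.902). The same opposite directions held, untested, for the medians of the fatty acid synthesis (0.14), TGF-beta (0.19) and epithelial (0.15) lists, and for the share of TPM in mitochondrial tRNAs, which differed by 1.21 percentage points.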

How the results depend on the processing

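The number of genes called over all lines, 2 as reported, was 0 without the variance trend, with median-of-ratios scaling, with no replicate block, with the line as a random block and without any 1 line (range 0 to 0), 22 at 5 TPM or more, 54 at 5 TPM with a GENCODE transcript and 58 with the GC and length correction in the fit with the replicate block. Knockout lines, 0 as reported, had 26 at 5 TPM with a transcript and 68 with the correction. RAC1-positive lines, also 0, had 1 (RNU6-611P) with no replicate block and 1 with the random block. The genotype difference, 0 as reported, had 4 with no replicate block and 4 with the random block (MT-TN, MT-TC, MT-TA and CASP8), 1 (MT-TN) at 5 TPM with a transcript and 2 (MT-TN and MT-TY) with the correction. Lists with a median above 0 numbered 17 as reported, 11 with upper quartile scaling and 6 with the correction. The median over all genes moved too, from 0.04 as reported to 0.005 with upper quartile scaling. With the correction, which covered fewer genes, it was -0.03. Fewer genes are tested at 5 TPM; for the other changes the cause was not tested. Of 129 named genes and contrasts 126 kept their sign in every setting, as did 11 of 33 list medians. The exceptions among the genes, in 1 setting each, were ACTG1, HMGCS1 and KRT8. Of 2175 values of single genes 0 reversed a call, but only HERPUD1 and MINPP1, over all lines, were called as reported. Each of them stayed called in 7 of 17 alternative settings. TPM keeps no depth, so precision of low genes cannot be given.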

Other observations

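In the list of FOXO and nutrient-low targets 2 of 17 genes tested (11.8%, against 1.23% of all genes) were lower in 6 of 6 pairs, none was higher, and 0 were called. IRS2 averaged 3.21 TPM in batch 2 and 6.13 TPM in batch 1 (difference -0.69 ± 0.19, SE; limma adjusted p = 0.334), and CITED2, a transcriptional co-regulator, was the other (-0.46 ± 0.15, SE; limma adjusted p = 0.452). In the hypoxia and glycolysis list 3 of 35 genes (8.57%, against 4.48% of all genes) were higher in all pairs, DDIT4 among them. DDIT4 averaged 19.6 ± 13.2 TPM in batch 2 and 4.46 ± 3.8 TPM in batch 1 (SD, n = 6 each) (difference 2.05 ± 0.48, SE; limma adjusted p = 0.242). In sgNTC clone 2, whose batch 1 library stood apart and listed DDIT4 at 0, the differences were 4.79 for DDIT4 and -1.58 for IRS2. That line therefore enlarges the means of both genes. Of 31 proteasome genes 1 (3.23%, against 4.48% of all genes), PSMD2, was higher in 6 of 6 pairs (0.87 ± 0.12, SE; limma adjusted p = 0.0752).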
